A study of Homo sapiens with 8 samples.

Results

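HT29 clones carrying 2 vectors with CD24-directed shRNA were compared with an HT29 clone carrying 1 such vector. HT29 is an established human colorectal cancer cell line. The comparison used 3 of the 8 arrays of the study, 1 from the 1-vector clone and 1 from each of 2 clones with 2 vectors, labelled G and E. Genes were kept where the 1-vector clone lay outside both 2-vector clones on the scale log2(intensity + 10), and each difference was set against the spread between clones G and E. Of 6786 genes above a filter on low values, 3984 (58.7%) met that condition, 2046 with the 2-vector clones higher and 1938 with them lower. By ordering alone, a given array among 3 is an outer value for most genes. The share of 58.7% therefore does not set the 1-vector clone apart. These counts come from the same values that chose the genes and carry no test.

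The label of the 1-vector clone names a vector without a number, and the number 1 comes from the design text of the series. Whether clones G and E were derived from the 1-vector clone is not given in the sources used. Each of these arrays stands for a clone grown from HT29, so differences between clones and differences between vector numbers cannot be told apart for the 1-vector clone, which is the only one of its kind. The shRNA sequences, their target sites in CD24, and whether the vectors of a 2-vector clone carried the same shRNA are not given in the sources used. The remaining HT29 arrays read beside the clones were untreated HT29 without any vector and a clone whose vector expresses an shRNA directed at GFP, a jellyfish protein that human cells lack. The antibody arrays and the pancreatic line of the study took no part in the comparison.

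CD24 is a small, heavily glycosylated protein that a lipid anchor holds in the outer cell membrane. It is abundant on many carcinomas, colorectal cancer among them, and binds P-selectin and other lectin-like partners. A short hairpin RNA is made from the vector inside the cell, cut by the nuclease Dicer, and loaded into an Argonaute protein that recognises messenger RNA of matching sequence.

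The epithelial markers EPCAM, KRT8, KRT18, KRT19 and CLDN4 were above the filter on all 3 clones. Of 10 colon markers only VIL1, KRT20 and LGALS4 passed the filter, which uses the mean of the 3 clones. By single clones, 3 were above the filter intensity of 37.2 in the 1-vector clone, 2 in clone G and 1 in clone E. VIL1 was above it in the 1-vector clone only. CDX1, CDX2, CDH17 and FABP1 read 13.1 or less on each of the 5 HT29 arrays, untreated HT29 included. E-cadherin (CDH1) read 2172.8 in untreated HT29, 15.4 in the GFP clone, 13 in the 1-vector clone, 7.7 in clone G and 1.4 in clone E, so it was dim in all 4 clones, the GFP clone included. Markers of fibroblasts summed to 162.1 to 212.9 and those of endothelium to 50.8 to 70.3 in the 3 clones.

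The targeted gene was examined first. The mean log2 value over the 6 CD24 probe sets was 11.25 in untreated HT29 and 11.56 in the GFP clone. It was 8.40 in the 1-vector clone, 7.78 in clone G and 8.39 in clone E. All 3 CD24 shRNA clones lay far below both controls: untreated HT29 was 7.22-fold above the 1-vector clone, 11.05-fold above clone G and 7.26-fold above clone E.

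CD24 did not differ between the vector groups by more than the spread of the 2-vector clones. Their mean was 8.09 ± 0.43 (SD, n = 2), a log2 difference of -0.31 from the 1-vector clone. The exact two-sided permutation test over the 3 arrays gave p = 0.667, and 0.333 is the smallest p that 3 arrays allow, so the test cannot reach 0.05 and supports nothing by itself. Clone E read like the 1-vector clone, and the difference rested on clone G: it was -0.61 with clone G alone and -0.0071 with clone E alone. The brightest probe set read 558 in the 1-vector clone, 171.7 in clone G and 595.5 in clone E, with the 1-vector clone between the others. The probe sets did not move together, since 4 of 6 were lower with 2 vectors. On 1 of the other probe sets clone G was the highest of the clones, at 1062 against 596.8 in the 1-vector clone and 594.4 in clone E.

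The clones differed from each other as much within the 2-vector group as between the groups. Clone G and the 1-vector clone were 2-fold or more apart for 568 genes, clone E and the 1-vector clone for 1465, and clones G and E for 1365. Clone G thus lay nearer to the 1-vector clone than to the other clone with 2 vectors. Clone E read higher than clone G for 1146 of the 1365 genes and lower for 219. Clone E was also the nearest of the 3 to the controls, with 1250 genes 2-fold from untreated HT29 and 701 from the GFP clone, against 2799 and 2476 for clone G and 2624 and 1986 for the 1-vector clone.

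**Figure D1:**
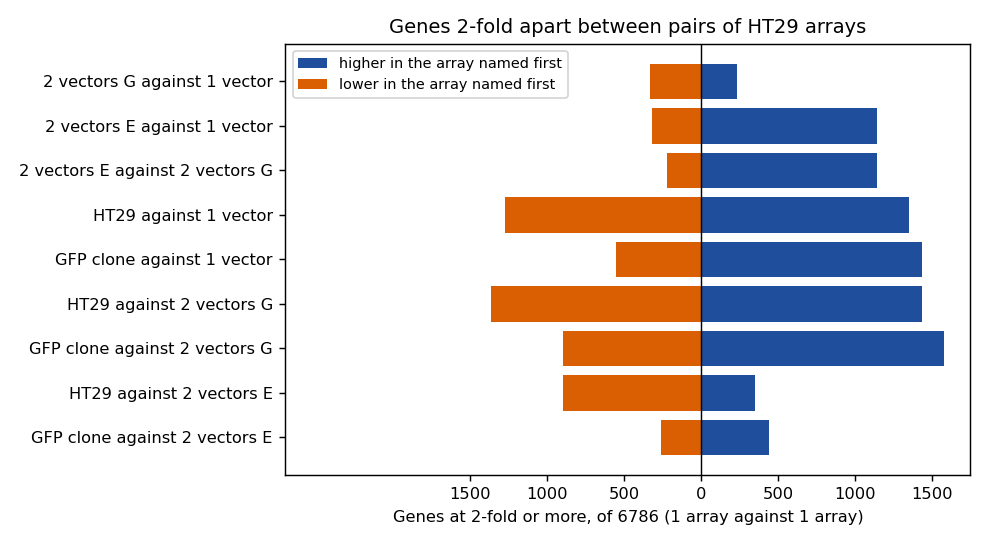
Number of genes, of 6786, that differ 2-fold or more between pairs of single HT29 arrays. Bars to the right count genes higher in the array named first and bars to the left genes lower in it; clone G against the 1-vector clone gives 568 genes and clone E against clone G 1365.

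Clone G also stood apart in RNA measures. Its 18S ribosomal RNA control probe sets read 434.8, 160 and 369.8, where the highest of the other 7 arrays were 48, 33.4 and 34.2. The ratio of the 3′ to the 5′ probe set of ACTB was 1.77 in clone G and between 1.06 and 1.17 on the 4 other HT29 arrays. The dap 3′ spike control did not set clone G apart. It read 778 in the 1-vector clone, 627.7 in clone G and 366.1 in clone E. Untreated HT29 read 235.3 and the GFP clone 238. The lys 3′ spike read 187.2, 177.8 and 80.5 in the same clones and 74.5 and 58.2 in the controls. The phe 3′ spike read 83.3, 76.8 and 51.5, and 34.8 and 46.9. On these spikes clone G lay near the 1-vector clone and clone E nearer to the controls. The BioB and cre 3′ spikes did not group the arrays in that way. The part of these measures in the differences below was not tested.

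Requiring a 2-fold difference of the 2-vector mean left 637 genes (9.39% of the 6786), 403 higher with 2 vectors (5.94%) and 234 lower (3.45%). Genes were called separated where the nearer 2-vector clone lay 2-fold or more from the 1-vector clone and farther from it than clones G and E lay from each other. That held for 239 genes (3.52%), 109 higher (1.61%) and 130 lower (1.92%). Of the other 398 of the 637 genes, 294 higher and 104 lower, the nearer clone lay within the spread for 279, and for 119 it lay beyond the spread but under 2-fold. Some values were at the dim end of the array: the 1-vector clone was below the filter intensity of 37.2 for 37 of the 109 separated higher genes, and both 2-vector clones were below it for 18 of the 130 lower ones. Of the 234 lower genes 55.6% were separated, and of the 403 higher genes 27.0%. Among the 403 higher genes clone E was the farther clone for 327. With clone E alone 1465 genes were 2-fold apart, 78.2% of them higher, and with clone G alone 568, 41.5% of them higher, so the larger count of higher genes rested on clone E.

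**Figure D2:**
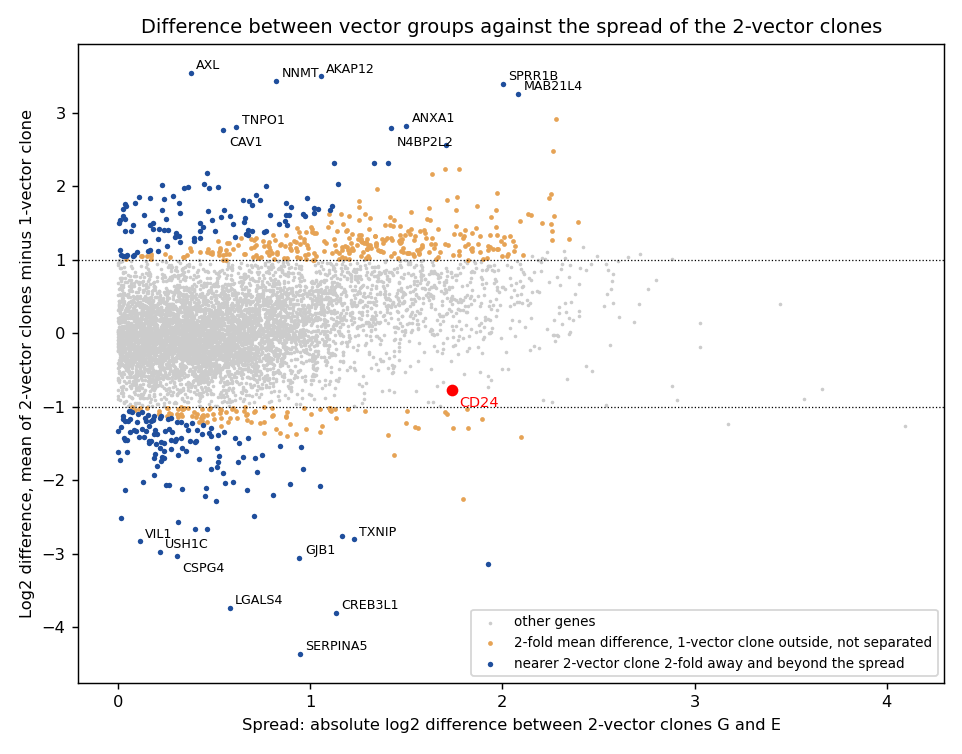
Each point is 1 of 6786 genes, by the absolute log2 difference between clones G and E (x axis) and the log2 difference of their mean from the 1-vector clone (y axis); dotted lines mark 2-fold. Separated genes (blue) lie towards small spreads, CD24 by its brightest probe set (red) lies at -0.78 with a spread of 1.74, and many 2-fold higher genes (orange) have spreads above 1.

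limma, fitted to the 3 arrays with Benjamini-Hochberg adjustment over the 6786 genes, called 20 genes at adjusted p 0.05, 10 higher (0.147%) and 10 lower (0.147%) with 2 vectors. The design left 1 residual degree of freedom, and borrowing across genes raised the total to 6790. limma gave every gene the same SE of 0.71. The calls therefore follow the size of the difference alone and begin at a log2 difference of 2.75. Unadjusted p under 0.05 was reached by 217 genes, where 339.3 would be reached by chance. These are the same 3 arrays that chose the genes, so the fit adds no independent support and the genes below are described by their values. A fit with untreated HT29 and the GFP clone as 2 further arrays called 0 genes (128 at unadjusted p under 0.05), and so did the 3-array fit without the filter (364 of 11963 genes). Apart from those fits, 9 of the 20 were called under every alternative that measured them: NNMT, AKAP12, SPRR1A, SPRR1B, ANXA1, SERPINA5, LGALS4, CREB3L1 and GJB1. The others lost the call under at least 1 more setting.

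Among the genes higher with 2 vectors were a receptor kinase and components of the membrane scaffold. AXL, a receptor tyrosine kinase activated by the ligand GAS6, read 13.2 in the 1-vector clone, 298.5 in clone G and 227.3 in clone E. Untreated HT29 read 23.2 and the GFP clone 113.6, so the 1-vector clone was the lowest and both 2-vector clones the highest of the 5 arrays. The log2 difference was 3.54. A dimmer probe set read 9.9, 69.9 and 18.8 in the same clones, and with the mean of both probe sets the difference was 2.41.

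AKAP12, a scaffold that gathers protein kinase A and protein kinase C at the membrane, read 134.4 in the 1-vector clone, 1121.8 in clone G and 2344.7 in clone E. The controls read 17.2 and 150.9, below both 2-vector clones. The log2 difference was 3.50. CAV1, the coat protein of caveolae, read 18.1 in the 1-vector clone, 147.9 in clone G and 221.1 in clone E, with 19.8 in untreated HT29 and 47.2 in the GFP clone (log2 difference 2.77). Its partner and chromosomal neighbour CAV2 read 32, 132.1 and 127.9, a log2 difference of 1.74. CAV2 read 45 in untreated HT29, and its value of 148.6 in the GFP clone lay above both 2-vector clones. Both caveolins were low in the 1-vector clone. Clones G and E lay close together for CAV2, with a log2 spread of 0.04. For CAV1 their spread was 0.55, near the median of 0.53 over all genes above the filter.

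A further set was lowest in the 1-vector clone among the 5 HT29 arrays. NNMT, which methylates nicotinamide, read 61.1 in the 1-vector clone, 1013.2 in clone G and 568 in clone E, against 174.4 in untreated HT29 and 1923.9 in the GFP clone (log2 difference 3.44). ANXA1, a calcium-dependent phospholipid-binding protein, read 101.7, 459.4 and 1318.3 in the 1-vector clone, G and E, and 823.1 and 2860.6 in the controls (2.82). TNPO1, an importin that carries proteins into the nucleus, read 88.1, 544.3 and 839.7, and 1052.5 and 869.6 in the controls (2.81). For ANXA1 and TNPO1 both controls lay with the 2-vector clones, whereas for NNMT untreated HT29 was nearer to the 1-vector clone.

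N4BP2L2, also among the 20 called, had 4.7 in the 1-vector clone, 52.6 in clone G and 157.7 in clone E (log2 difference 2.80). Its other probe sets disagreed: 2 of them had the opposite sign, and clone G read close to the 1-vector clone on the others, for example 5.6 against 3. MAB21L4 read 11.2 in the 1-vector clone, 407.1 in clone G and 88.5 in clone E, a wide gap between the 2-vector clones (3.26). MTARC1, a mitochondrial amidoxime reductase, was at 9, 63.3 and 91 (2.18). KLF6, a zinc finger transcription factor, was at 90.8, 434 and 368.4 (2.02), and tenascin C (TNC), a matrix glycoprotein, at 108, 555.2 and 404.7 (2.04). The last 3 were separated, with differences that limma did not call.

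**Figure D3:**
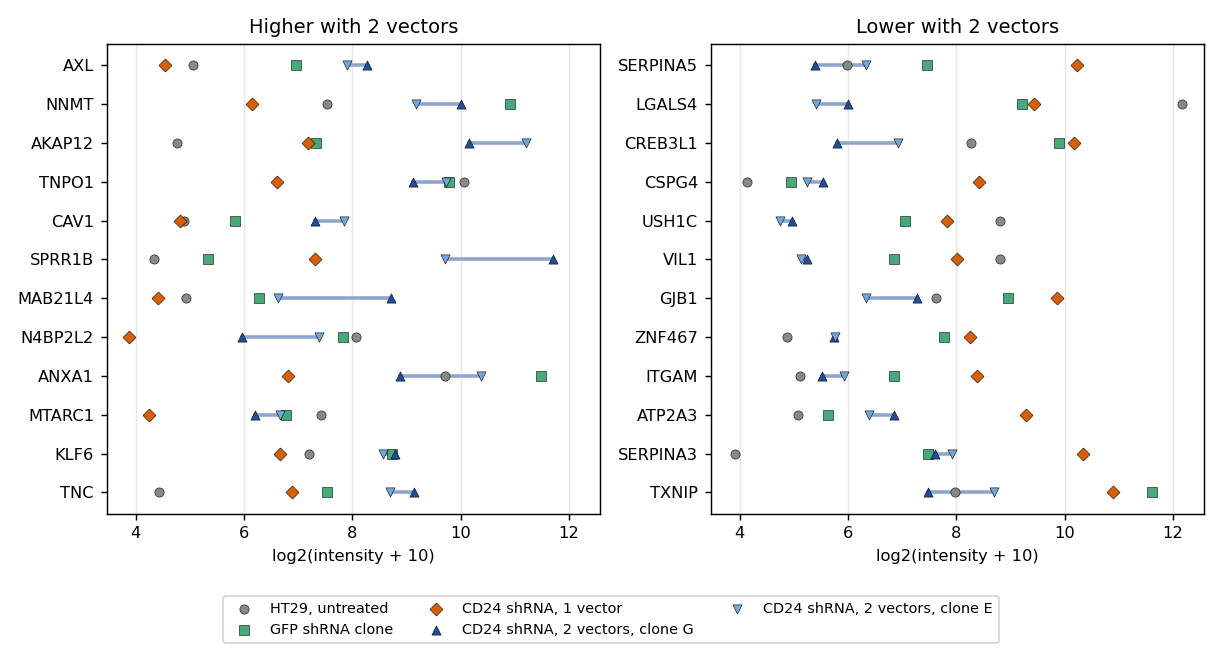
The 12 separated genes per direction with the largest difference of the nearer 2-vector clone, as log2(intensity + 10), 1 symbol for each of 5 HT29 arrays; bars join clones G and E. AXL, AKAP12 and CAV1 have both 2-vector clones above every other array, whereas NNMT, TNPO1 and MTARC1 have the 1-vector clone below the other 4.

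SPRR1B and SPRR1A, small proline-rich precursors of the cornified envelope of squamous epithelium, were also higher. SPRR1B read 149.5 in the 1-vector clone, 3345.2 in clone G and 826.7 in clone E, against 10.3 in untreated HT29 and 30.1 in the GFP clone (log2 difference 3.39). SPRR1A read 135.8, 2429.2 and 492.3 in the clones and 59 and 81.8 in the controls (2.92). Both genes were ordered alike on the 5 arrays, with the 1-vector clone above the controls and clone G far above clone E. Sequences of the 2 genes are near-identical in part, and probe sets for one can bind the other. The keratinocyte keratins KRT5 and KRT14 read 4 or less in the 3 clones, so the squamous genes were not joined by those keratins. Of 9 cornified envelope and squamous genes above the filter, 6 were positive and 3 negative, with a median of 0.26 that was 0.46 with clone G alone and 0.057 with clone E alone. SPRR1A and SPRR1B were the 2 kept at 2-fold.

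EGR1, a zinc finger factor made within minutes of a growth signal, was higher in the same 2 clones, at 271.7 in the 1-vector clone, 1233.5 in clone G and 764.9 in clone E. The 3 genes had both 2-vector clones 2-fold or more above the 1-vector clone, untreated HT29 and the GFP clone. Their RefSeq promoters (build GRCh38.p14, 250 bases before to 50 after the start) are shown as examples of those in which a searched motif was found, chosen after the search. Others of the same gene group held a motif too (AKAP12, NAV2 and PPP1R15A), and those of FOSB and ATF3 held none of the AP-1, CRE or CArG letters. Capitals mark the AP-1 motif TGANTCA in the SPRR1 genes and the CArG box, the element bound by serum response factor, in EGR1. Both strands were searched.
SPRR1A promoter, chr1:152983831-152984130, plus strand: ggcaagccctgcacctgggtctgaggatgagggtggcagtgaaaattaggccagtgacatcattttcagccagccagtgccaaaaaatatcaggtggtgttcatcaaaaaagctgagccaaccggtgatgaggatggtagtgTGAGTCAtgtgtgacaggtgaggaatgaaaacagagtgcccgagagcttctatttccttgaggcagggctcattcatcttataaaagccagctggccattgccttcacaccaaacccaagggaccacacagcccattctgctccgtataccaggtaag
SPRR1B promoter, chr1:153030953-153031252, plus strand: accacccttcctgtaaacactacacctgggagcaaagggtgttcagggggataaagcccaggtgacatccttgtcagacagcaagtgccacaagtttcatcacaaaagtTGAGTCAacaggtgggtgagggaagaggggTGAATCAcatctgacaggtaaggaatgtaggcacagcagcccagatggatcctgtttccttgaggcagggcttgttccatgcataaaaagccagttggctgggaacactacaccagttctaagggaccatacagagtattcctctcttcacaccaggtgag
EGR1 promoter, chr5:138465229-138465528, plus strand: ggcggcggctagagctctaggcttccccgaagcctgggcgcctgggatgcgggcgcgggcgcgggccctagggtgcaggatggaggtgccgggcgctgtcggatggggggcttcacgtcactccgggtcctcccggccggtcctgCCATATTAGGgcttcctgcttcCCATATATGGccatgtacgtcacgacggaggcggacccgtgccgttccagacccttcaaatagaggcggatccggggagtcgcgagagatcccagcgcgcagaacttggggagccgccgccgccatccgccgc
The AP-1 motif begins 108 bases before the start of SPRR1A and 141 and 111 bases before that of SPRR1B, and the CArG boxes begin 105 and 83 bases before the start of EGR1. Of 35116 RefSeq promoters of this length, 7.71% hold the AP-1 letters and 1.29% a CArG box. These are matches of letters and not measured binding.

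In all, 18 genes (0.265% of 6786) had both 2-vector clones 2-fold or more above the 1-vector clone, untreated HT29 and the GFP clone alike. They included AKAP12, CAV1, SPRR1A, SPRR1B and TNC. ATF3, FOSB, FOSL1, EGR1, GEM, PPP1R15A, GADD45B and RHOB, also among the 18, are known for rapid and short-lived induction, a grouping made after their values were seen. Other genes of that kind were not among the 18. FOS read 46.5 in the 1-vector clone, 85.3 in clone G and 113.3 in clone E, with 262.3 and 98.1 in the controls. IER3 read 730.7, 1912.7 and 1102.9, with 1890.7 and 826.8 in the controls. FOSB, a subunit of AP-1, read 11.1 in the 1-vector clone, 156.8 in clone G and 56.2 in clone E, with 4.4 and 4.8 in the controls. FOSL1, a further AP-1 subunit, read 227.2, 1864.8 and 593.8, with 276.2 and 204 in the controls. ATF3, a stress-induced bZIP factor, read 74.5, 308.7 and 285.4, with 30 and 71.3 in the controls. For these 3 genes clone G was above clone E, and both were above the other 3 arrays.

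PPP1R15A, which directs dephosphorylation of the translation factor eIF2-alpha, read 239.2 in the 1-vector clone, 1506.9 in clone G and 676.9 in clone E. GADD45B, a stress sensor of the p38 pathway, read 26.7, 175.8 and 84, and the small GTPase RHOB read 870, 3019.4 and 1992.8. GEM, another GTPase, was higher in clone E (206) than in clone G (116.6), and read 31.2 in the 1-vector clone. The others were CSRP2, RGCC, NAV2, KHDRBS3 and ARID5A, with log2 differences of 1.34 to 1.98. SPRR1A and FOSL1 did not clear the spread between G and E. Of 15 of the 18 genes with a RefSeq promoter, 2 held the AP-1 letters, the near-identical paralogues SPRR1A and SPRR1B, and 3 a CArG box (AKAP12, EGR1 and NAV2), against 7.29% and 1.83% of genes above the filter. The CRE letters TGACGTCA were found in 1 of the 15 (PPP1R15A) against 4.25%, and the GC box GGGCGG in 10 against 79.9%, again on both strands. The count of 18 became 96 with clone G alone and 26 with clone E alone, so most genes that stood out in clone G did not do so in clone E. Clone G is also the array with the high 18S values and the higher ACTB ratio.

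**Figure D4:**
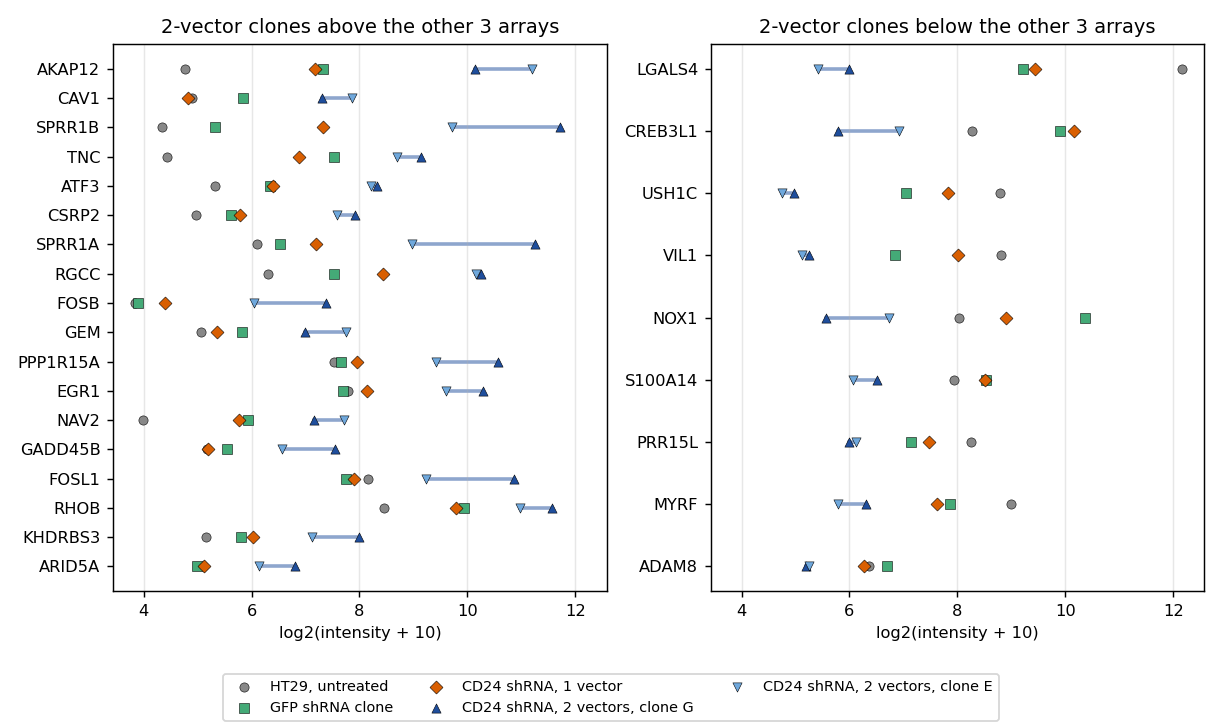
Values as log2(intensity + 10) of the 18 genes with both 2-vector clones 2-fold or more above the other 3 HT29 arrays (left) and the 9 genes with both below (right); bars join clones G and E. SPRR1A, SPRR1B and FOSL1 have wide bars, from 492.3 to 2429.2 for SPRR1A, while ATF3 and RGCC have clones G and E at nearly the same value.

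The genes lower with 2 vectors included markers of the intestinal brush border. LGALS4, galectin-4 of the intestinal apical membrane, read 682.2 in the 1-vector clone, 53.6 in clone G and 32.5 in clone E (log2 difference -3.73). Untreated HT29 read 4581.5 and the GFP clone 584.5, so the 1-vector clone lay near the GFP clone. VIL1, the actin-bundling protein villin of microvilli, read 248.5, 27.9 and 25, with 439.3 and 105.5 in the controls (-2.83). USH1C, harmonin, which links the tips of microvilli, read 217.5, 21.3 and 16.9, with 434.7 and 122.6 in the controls (-2.97). The 3 genes had the 2-vector clones below the 1-vector clone, untreated HT29 and the GFP clone. VIL1 and USH1C were below the filter intensity in both 2-vector clones, where the spread between G and E carries little information.

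KRT20, a keratin of differentiated colon epithelium, did not share that pattern: it read 4016 in the 1-vector clone, 4723 in clone G and 4799.8 in clone E. In all, 9 genes (0.133%) had both 2-vector clones 2-fold or more below the other 3 arrays. The list held LGALS4, VIL1 and USH1C, and also CREB3L1, NOX1, S100A14, PRR15L, MYRF and ADAM8. CREB3L1, a transcription factor released from the endoplasmic reticulum membrane, read 1136.2 in the 1-vector clone, 45.4 in clone G and 111.5 in clone E, with 299.3 and 945.6 in the controls (log2 difference -3.80). NOX1, the superoxide-producing oxidase of colon epithelium, read 468.2, 37.3 and 96.1, with 250.8 and 1307.8 in the controls (-2.75). S100A14, a calcium-binding protein, read 353.3, 81.7 and 56.9. The count of 9 became 114 with clone G alone, 25 with clone E alone and 4 after quantile normalization.

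Other lower genes were highest in the 1-vector clone. SERPINA5, the protein C inhibitor, read 1181.8 in the 1-vector clone, 31.8 in clone G and 70.6 in clone E, against 53.4 in untreated HT29 and 165 in the GFP clone (log2 difference -4.36). It was the largest difference among the 20 genes called. SERPINA3, alpha-1-antichymotrypsin, read 1280, 184.6 and 232 in the clones and 5.1 and 168.8 in the controls (-2.57). SERPINA4, kallistatin, read 266, 69.5 and 35.5 (-2.20). SERPINA3, SERPINA4 and SERPINA5 lie next to each other or 1 protein-coding gene apart on chromosome 14 in the GRCh38.p14 annotation. SERPINA1, alpha-1-antitrypsin, of the same gene cluster, read 11570.5, 6635.9 and 5969.9, a log2 difference of -0.88.

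CSPG4, a membrane proteoglycan, read 332.4 in the 1-vector clone, 36.6 in clone G and 27.6 in clone E, with 7.6 and 20.7 in the controls (log2 difference -3.03). Both 2-vector clones were below the filter intensity for CSPG4, so their spread carries little information. CAMP, the precursor of the antimicrobial peptide LL-37, read 235, 44.3 and 4.3, with 4.5 and 20 in the controls (-3.14). ITGAM, an integrin subunit best known from myeloid cells, read 322, 35.7 and 50.4 (-2.66), while the pan-leukocyte marker PTPRC read 10.1 or less in all 3 clones. Of the 4 leukocyte markers measured, LYZ read 4223.6, 3751.2 and 3784.7 and CD14 62.9, 4.3 and 6.6, so of the 3 clones CD14 was above the filter intensity in the 1-vector clone alone (untreated HT29 read 58.5). The 4 summed to 4319 in the 1-vector clone, 3787.1 in clone G and 3822.6 in clone E, and their part in the ITGAM difference was not tested. ATP2A3, a calcium pump of the endoplasmic reticulum, read 612.8, 105.1 and 73.4 (-2.67). For CSPG4, CAMP, ITGAM and ATP2A3 the 1-vector clone was the highest of 5 HT29 arrays and the 2-vector clones lay nearer to the controls.

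GJB1, the gap junction protein connexin 32, read 915.2 in the 1-vector clone, 144.2 in clone G and 70.1 in clone E, with 187.2 and 483.3 in the controls (log2 difference -3.06). TXNIP, the inhibitor of thioredoxin that follows glucose supply, read 1886.7, 167.5 and 405.3, with 240.2 in untreated HT29 and 3128.2 in the GFP clone (-2.80). The controls lay on opposite sides for TXNIP. ZNF467, a zinc finger protein, read 295, 43.3 and 43.9 (-2.51), and its other probe set read 2.8 or less in the 3 clones.

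Over all separated genes, 236 could be placed on GRCh38.p14, and 15 pairs lay next to each other or 1 protein-coding gene apart. In 14 of the 15 pairs both genes differed in the same direction, against 58.8% of 5404 such pairs of all genes above the filter. The separated genes were chosen by large differences on these same arrays, whereas the pairs of all genes include small differences of either sign. The shares are therefore not like for like, and nothing is read from them. The pairs are not separate observations, since the SERPINA genes make up 3 of them, DUSP10 enters 2, and neighbours such as AKR1C2 and AKR1C3 are similar in sequence. Beside the SERPINA genes and the caveolins they included ABCC8 with USH1C on chromosome 11 and AKR1C2 with AKR1C3 on chromosome 10.

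The controls were then placed relative to the midpoint between the 1-vector clone and the mean of the 2-vector clones. Among the 403 genes higher with 2 vectors, both controls lay on the side of the 2-vector clones for 286 (71.0%), against 49.4% of all genes with a positive difference. Both lay on the side of the 1-vector clone for 52 (12.9%). Among the 234 lower genes both controls lay on the side of the 2-vector clones for 100 (42.7%) and on that of the 1-vector clone for 40 (17.1%), against 52.5% and 16.0% of all genes with a negative difference. For 77 lower genes (32.9%) untreated HT29 lay with the 2-vector clones and the GFP clone with the 1-vector clone. Of the separated genes, 46 of the 109 higher ones (42.2%) and 53 of the 130 lower ones (40.8%) had both controls on the side of the 2-vector clones, below the 49.4% and 52.5% of all genes. The genes were chosen with the 1-vector clone as the outlying value, so nothing is read from these shares.

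The 1-vector clone was 2-fold or more below all 4 other HT29 arrays for 43 genes (0.634%) and above them for 37 (0.545%). Beside NNMT, TNPO1, ANXA1 and MTARC1, the 43 included TAF2, a subunit of the general transcription factor TFIID, at 35.2 in the 1-vector clone, 142.8 in clone G and 322.8 in clone E. They also held the BRCA1 partner BARD1 (10.7, 43.9 and 165.3) and the chaperone HSP90AA1 (756.5, 1723.9 and 4123.8). In these 3 genes clone G lay between the 1-vector clone and clone E. Other probe sets of the 43 genes had the same sign in 43 of 60 cases. The count of 43 became 792 with clone E alone and 44 with clone G alone.

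The 37 genes highest in the 1-vector clone included secreted and metabolic proteins. CA12, a carbonic anhydrase of the cell surface, read 2158.8 in the 1-vector clone, 433.9 in clone G and 550.2 in clone E. SPINK1, a trypsin inhibitor, read 1230.6, 414 and 194.7, and ASS1, argininosuccinate synthase, read 1166.9, 300.2 and 406.1. ABCC8, the sulfonylurea receptor, read 339.6, 99.5 and 117.5, and 4.8 and 11.8 in the controls, so the 3 CD24 shRNA clones were above the controls and the 1-vector clone was the highest. The count of 37 became 79 with clone E alone.

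Gene lists were described by their counts beside all genes, for which the median log2 difference was 0.04, 53.5% were positive (3629 of 6786) and 9.39% were kept at 2-fold. Of 26 genes known to follow ERK signalling, 23 had a positive difference, with a median of 0.38, and 3 (11.5%) were kept at 2-fold, a share near that of all genes. Those were FOSL1, EGR1 and HBEGF, a ligand of the EGF receptor, at 30.4 in the 1-vector clone, 180 in clone G and 78.4 in clone E. CCND1 and IER3 came closest to 2-fold among the rest, at 0.99 and 0.98. The median was 0.42 with clone G alone and 0.47 with clone E alone.

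Of 13 target genes of YAP and TAZ, 11 were positive, with a median of 0.46 that became -0.06 with clone G alone. AXL, AMOTL2 and MYOF were kept at 2-fold, AMOTL2 at 111.4 in the 1-vector clone, 412.7 in clone G and 328 in clone E. Of 18 receptor tyrosine kinases 9 were positive and 9 negative, with a median of 0.01. AXL, MET, EGFR and IGF1R were higher at 2-fold and EPHB3 lower. IGF1R, the receptor of insulin-like growth factors, read 158.6, 451.8 and 366.3, and EPHB3, an ephrin receptor of the crypt, 450.6, 175 and 140.6. MET, the receptor of hepatocyte growth factor, depended on the probe set: the brightest read 321.4, 672.5 and 1513.9, but another read 193.4, 49.9 and 605, with clone G the lowest. EGFR likewise had another probe set with a difference of the opposite sign.

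Of 15 mesenchymal and matrix genes 11 were positive (median 0.18) and 5 were kept at 2-fold, all higher: CAV1, TNC, CAV2, TGFBI and CALD1. TGFBI, a secreted matrix protein, read 1602 in the 1-vector clone, 5236 in clone G and 5143.6 in clone E. CALD1, caldesmon, read 76, 96.1 and 315.7, mostly a difference of clone E. SNAI1, the transcription factor Snail, went the other way at 83.3, 35.4 and 39.6, short of 2-fold. The other members with a negative difference were ACTA2 (-0.65), FN1 (-0.51) and COL4A2 (-0.08). VIM, ZEB1, ZEB2 and TWIST1 were below the filter. Of 18 epithelial junction genes 8 were positive and 10 negative (median -0.06). GJB1 and CLDN3, a tight junction claudin at 2650.4, 991 and 1136.1, were lower at 2-fold, and the scaffold TJP1, at 430.1, 788.3 and 1102.6, was higher.

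Of 17 intestinal differentiation genes 12 were negative (median -0.17) and 5 were kept at 2-fold, all lower. Beside LGALS4 and VIL1 these were TFF3, the trefoil peptide of goblet cells, at 117.5 in the 1-vector clone, 20.9 in clone G and 40.6 in clone E, SPDEF, a factor of secretory cells, at 896.1, 537.6 and 251.9, and CEACAM1 at 1010.5, 303.4 and 754.8. Of 26 antimicrobial genes on the array 5 were above the filter, and all 5 were lower, with a median of -1.01. Because the filter uses the mean of the 3 clones, a high value in the 1-vector clone helps a gene to pass it. The differences of LYZ and PIGR were small, at -0.16 and -0.29. Members below the filter went both ways, for example PI3 at 0.59 and S100A9 at -1.75. LCN2, the iron-scavenging lipocalin, read 4441.4, 1516.3 and 1326.1, and DMBT1, a mucin-like scavenger receptor, 86.2, 42.3 and 33.6.

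Of 22 interferon-stimulated genes 16 were negative (median -0.37), 4 of them at 2-fold, and 1 was higher at 2-fold. IRF9, the DNA-binding subunit of the interferon-activated complex ISGF3, read 459.5 in the 1-vector clone, 122 in clone G and 105.8 in clone E. OAS1, a sensor of double-stranded RNA, read 135, 42.7 and 50, and OASL and IFI35 had differences of -1.21 and -1.20. In untreated HT29 and the GFP clone IRF9 read 76.4 and 838.7, on either side of all 3 clones. OAS1 read 96 and 866 there, so both controls were above clones G and E and the 1-vector clone lay between the controls. The kinase EIF2AK2, which double-stranded RNA activates, was higher, at 38.9, 59.3 and 232, with clone G near the 1-vector clone.

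Of 11 genes of the RNA interference machinery 6 were positive, with a median of 0.01. EIF2AK2, which this list also holds, and AGO3, an Argonaute at 56, 100.7 and 203.8, were kept at 2-fold. Neither cleared the spread of the 2-vector clones. Of 11 NF-kB target genes CXCL8, the chemokine interleukin-8, read 76.7 in the 1-vector clone, 278.8 in clone G and 391.9 in clone E. TNFAIP3, the deubiquitinase A20, read 26.9, 138.4 and 75.7, whereas TNFAIP2 was lower at 1490.5, 555.9 and 495.1. The median of that list was -0.01.

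Of 43 cell cycle genes 35 were positive (median 0.23). At 2-fold 5 (11.6%) were kept, all higher, a share near the 9.39% of all genes. Separated genes numbered 0, where 3.52% of all genes were separated. CDK1, the mitotic kinase, read 46.9 in the 1-vector clone, 86.6 in clone G and 450.8 in clone E, and KIF11, a spindle motor, 18, 23.6 and 123.7. CDC25A, the phosphatase that activates cyclin-dependent kinases, was highest in clone G, at 144.1, 538.8 and 226.4. Of 17 heat shock genes 14 were positive (median 0.21), with HSP90AA1, HSPA4L and HSPH1 (17.6%) higher at 2-fold and 0 separated. HSPH1, a co-chaperone, read 259.5, 349.9 and 818, so clone G lay near the 1-vector clone and clone E set the difference.

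Of 24 detoxification genes 15 were negative (median -0.17), and 7 were kept at 2-fold, 2 higher and 5 lower. AKR1C3, an aldo-keto reductase that reduces steroids and prostaglandins, read 863.1 in the 1-vector clone, 197.6 in clone G and 286.8 in clone E, and the exporter ABCC3 3860.5, 1594.4 and 1227.1. HMOX1, haem oxygenase, was at 116.5, 632.4 and 179.7. Of 20 CD24 partners and progenitor surface markers, CD55, a complement regulator, read 193.2, 495 and 575.8 and the adhesion molecule ALCAM 22.6, 46.7 and 100.8, while the chemokine receptor CXCR4 was lower at 190.5, 61.7 and 50.7. CD44, the hyaluronan receptor, was at 1712.1, 1544.5 and 1555. In 5 lists, those of antigen presentation, p53 targets, keratins, ribosomal proteins and oxidative phosphorylation, 0 genes were kept at 2-fold.

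**Figure D5:**
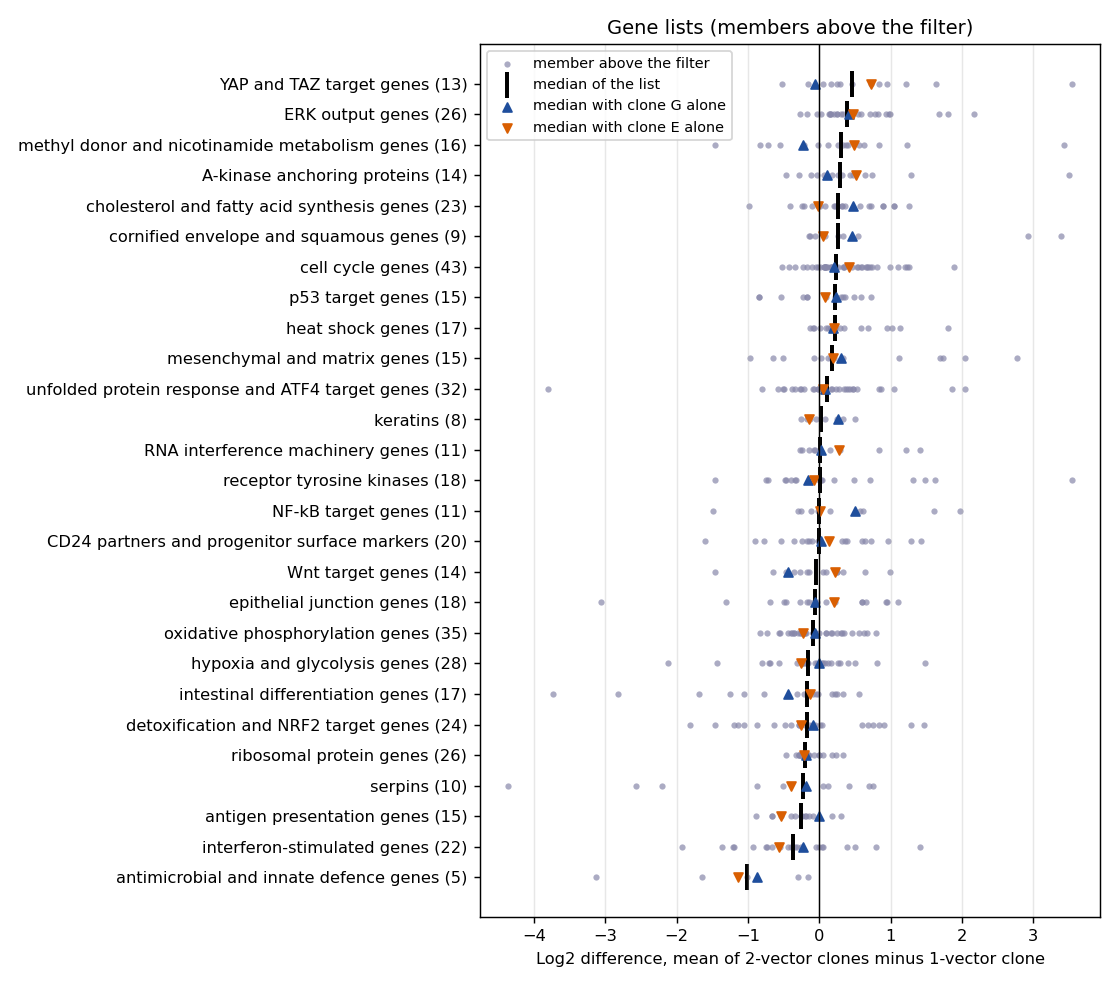
Log2 difference (mean of the 2-vector clones minus the 1-vector clone) of each list member above the filter, with the number of such members in brackets. Black bars give the median of each list and triangles the median with clone G or clone E alone; the ERK list has 0.42 and 0.47 for the 2 clones, whereas the YAP and TAZ list has -0.06 with clone G alone.

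Genes at the 2-fold threshold show how thin the line is between kept and left out. Just inside it, PIK3CB was at 56.5 in the 1-vector clone, 83.5 in clone G and 179.2 in clone E, and TOP1 at 214.4, 228.7 and 834.1. EXPH5 (52.8, 65.6 and 198.3) and AGGF1 (21.1, 29.9 and 86.8) lay just outside. On the lower side HADHAP1 (73.7, 30.8 and 32.9) and MAP1A (75.1, 45.3 and 22.6) were inside, and DHTKD1 (134.1, 37.3 and 100.7) and SMUG1 (536.5, 279.4 and 249.9) outside. Near the upper threshold the difference lay mostly in clone E.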

How the data were processed

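RNA from 8 cell samples was hybridised to Affymetrix human arrays, 1 sample per array, and 3 arrays entered this comparison. The authors deposited linear intensities per probe set, computed with MAS5 per the submitters' processing notes, of which no version is stated in the sources used. Every array had a 2% trimmed mean of 250.1, and the median intensity was 36.9 in the 1-vector clone, 32.4 in clone G and 47.5 in clone E. The annotation gave 19064 of 22277 probe sets a single symbol, 1043 several and 2108 none, and 62 are controls. For each of 11963 genes, the brightest single-symbol probe set over the 8 arrays was used.

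Values were converted to log2(intensity + 10), the scale of every log2 difference given; the added 10 makes differences of dim genes look smaller. The filter kept genes whose mean over the 3 arrays exceeded the median over probe sets, an intensity of 37.2. limma 3.58.1 in R 4.3.3 (lmFit and eBayes, two-sided) gave adjusted p-values. It was also run on simulated data whose noise followed the fit's own assumptions. That run therefore cannot show how the fit fares on these clones. The 1-vector array is assumed to vary like the 2-vector arrays. Separate cultures are not named in the labels. The p-values of the 3-array fit rest on the spread between clones G and E, pooled over genes. The 1-vector array adds nothing to that spread. It lies between 2 different clones, and its technical part was not tested.

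Genes named are CD24; the 12 per direction with the largest difference of the nearer 2-vector clone among genes beyond the spread; up to 5 members of a described list with the largest differences; and the 2 genes just inside and outside the threshold. Genes outside that rule, the classes that stand apart from the other HT29 arrays among them, were chosen after their values were seen. The comparison and the 27 gene lists were chosen with earlier results of these data known. Alternatives were the pseudocount (1 or 50), the filter (none, or the 75th percentile), quantile normalization, the mean of probe sets, leaving out _x_at and _s_at probe sets, a 5-array fit, a variance trend and leaving out each 2-vector clone. Promoter sequences are RefSeq's on GRCh38.p14.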

Additional observations from a re-analysis of the deposited data

Results flagged for a closer look

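The control probe sets for 18S ribosomal RNA, which no comparison uses, stood above every other array in clone G. The 3′ probe set read 434.8 in clone G and at most 48 on the other 7 arrays. The 5′ probe set read 160.0 against at most 33.4, and the middle probe set 369.8 against at most 34.2. The part of this signal in the values of clone G was not tested.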

How the results depend on the processing

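The count of 637 genes at 2-fold was 326 with a pseudocount of 50, 1193 without a filter, 231 with the filter at the 75th percentile and 374 without _x_at and _s_at probe sets, and ranged from 568 to 1465 when either 2-vector clone was left out. The count of 239 separated genes was 131, 513, 88 and 134 under the same 4 settings, and it has no value without 1 of the clones. The 20 limma calls became 0 without a filter and in the 5-array fit, 10 with the filter at the 75th percentile, 13 without _x_at and _s_at probe sets and 13 with a variance trend; fewer genes were tested with the higher filter (3726) and without those probe sets (3945), and the cause of the other changes was not tested. The total degrees of freedom were 6790 in the main fit, 5.29 without a filter and 10.5 in the 5-array fit. The part of these values, and of the number of genes tested, in the counts was not tested. The CD24 difference ranged from -0.61 to -0.0071 when a 2-vector clone was left out. It has no value without _x_at and _s_at probe sets.

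The counts of genes that stand apart from the other HT29 arrays, and their alternatives, were chosen after seeing the data. The 18 were 11 with a pseudocount of 50 and 26 to 96 with a clone left out. The 9 were 23 without a filter, 4 after quantile normalization and 25 to 114 with a clone left out. The 43 were 13 with a pseudocount of 50, 99 without a filter, 24 with the mean of probe sets and 44 to 792 with a clone left out. The 37 were 73 without a filter and 44 to 79 with a clone left out. Among 95 named genes, 20 lost their limma call under at least 1 alternative and 6 gained one.

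Direction reversed for 1 of the 95 genes, CD24 by its brightest probe set (-1.64 to 0.092 with a clone left out), and for 10 list medians. With a clone left out these ranged from -0.064 to 0.73 for YAP and TAZ targets, -0.16 to -0.070 for receptor tyrosine kinases, -0.062 to 0.20 for epithelial junctions, -0.22 to 0.49 for the methyl donor list, 0.015 to 0.51 for NF-kB targets, -0.023 to 0.47 for cholesterol synthesis, -0.44 to 0.21 for Wnt targets, -0.14 to 0.26 for keratins and 0.022 to 0.14 for CD24 partners. Receptor tyrosine kinases were also at -0.068 after quantile normalization and -0.023 with the mean of probe sets, NF-kB targets at 0.15 and RNA interference genes at -0.022 with that mean. No paired analysis was possible because the labels give no replicate numbers shared by the vector groups. Having 1 array per clone limits how precisely any value is known.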
